A study of Mus musculus with 17 samples.

Results

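The genes described here are 10 transcripts long used as markers of reactive astrocytes: Gfap, Vim, Serpina3n, Lcn2, Osmr, Cd44, Steap4, S100a10, S1pr3 and Timp1. They were taken by symbol from a table of 24498 genes, and all 10 had a row in it. Poly(A) RNA was sequenced in bulk from dissected mouse dorsal hippocampus, so neurons and glia were measured together. Mice were wild type (WT) or knockout (KO) for Acss2, whose product, acetyl-CoA synthetase 2, converts acetate to acetyl-CoA, and the knockout was constitutive. At 6 months of age each mouse received an intracranial injection of phosphate-buffered saline (PBS) or of tau purified from brain of patients with Alzheimer's disease (AD tau, labelled Tau). Per the study's methods, AD tau was injected into the right dorsal hippocampus and molecular work followed 6 months after injection. The 6 groups comprised PBS- and Tau-injected males of both genotypes (3 libraries a group), Tau-injected KO females (3 libraries) and Tau-injected WT females (2 libraries). The study's methods name males for bulk RNA sequencing, whereas the sample titles mark 5 of these libraries as female. There was no female PBS group, so AD tau could be set against PBS in males only, and the control injection carried no protein from human brain. WT and KO mice were bred from separate homozygous crosses. Each library is named here by the number in its label.

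Astrocytes respond to injury, infection and protein aggregates by enlarging, by building up intermediate filaments and by secreting acute phase proteins. Much of this response runs through cytokines of the interleukin 6 family, which signal by the shared receptor chain gp130 (Il6st) and the transcription factor STAT3. Gfap and Vim encode filament proteins, Serpina3n, Lcn2 and Timp1 encode secreted proteins, and Osmr, Cd44 and S1pr3 encode receptors at the cell surface. Steap4 encodes a metalloreductase and S100a10 the light chain partner of annexin A2.

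In the GENCODE annotation of GRCm38, all 10 are protein-coding genes. Gfap lies at chr11:102887336-102900912 and Osmr at chr15:6813577-6874969, both on the minus strand, and Steap4 at chr5:7960457-7982213 on the plus strand. Lcn2 (chr2:32384633-32388252), Vim (chr2:13573927-13582826) and Cd44 (chr2:102811141-102901665) share chromosome 2 with the deleted gene Acss2, at distances of 123.1, 141.9 and 52.6 megabases. Serpina3n is on chromosome 12, S100a10 on 3, S1pr3 on 13 and Timp1 on X.

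The STAT binding motif, spelled TTCNNNGAA and the same on both strands, was searched in RefSeq promoters (GRCm38.p6, from 250 bases before to 50 bases after each start). It was present in 8.30% of 32851 promoters and in 2 of the 9 members that had a promoter entry, Steap4 and Gfap. The stretches around both matches are shown so that the match can be seen in its context, with the motif in capitals.
Steap4 (chr5:7960326-7960394, plus strand): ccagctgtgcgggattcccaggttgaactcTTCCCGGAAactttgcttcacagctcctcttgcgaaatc
Gfap (chr11:102897194-102897262, minus strand): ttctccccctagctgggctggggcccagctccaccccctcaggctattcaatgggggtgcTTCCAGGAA
The Steap4 match lay 116 bases before the start. The Gfap match began 2 bases before the RefSeq start, which lies inside the longer Gfap gene of the GENCODE annotation. The AP-1 motif TGANTCA, also palindromic, was present in 7.81% of promoters and in 1 of the 9 member promoters, that of Osmr. A match is a description of letters in these windows and not evidence of binding.

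Libraries held 14183131 to 22463635 counted reads, so that 3 reads, taken as the floor, were worth 0.134 to 0.212 CPM (counts per 1000000 counted reads). Knockout libraries held 3.07 to 8.81 CPM of Acss2 and wild-type libraries 44.0 to 54.6 CPM, which matched the labels. In bulk tissue, more cells of a type and more RNA per cell cannot be told apart. The 16 genes of a homeostatic astrocyte list were all above the floor in all libraries, and none was at 0. Their summed level was 6868 to 8110 CPM in 11 of the 12 male libraries and 12921 CPM in male KO Tau 711, which stood with the females at 11826 to 15444 CPM. A choroid plexus list was high in male KO Tau 713 (summed 5426 CPM) and, less so, in male WT Tau 772 (1124 CPM), against 226 to 799 CPM in the other libraries. A CA1 pyramidal list summed to 449 CPM in male KO PBS 752, against 984 and 998 CPM in the other male KO PBS libraries. It was also low in female WT Tau 331 (407 CPM) and female KO Tau 325 (487 CPM), against 670 to 1036 CPM in the 6 male Tau libraries.

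Compared per length of exon, Gfap was by far the most abundant of the 10 genes, at a mean of 213 ± 171 reads per kilobase of exon scaled to library size as CPM is (RPKM, SD, n = 17). Serpina3n followed at 23.6 ± 12.3 RPKM, S100a10 at 14.1 ± 3.30 RPKM and Vim at 13.7 ± 5.88 RPKM. In females alone Vim (21.1 ± 4.92 RPKM, n = 5) was above S100a10 (16.5 ± 4.10 RPKM). The other members averaged from 0.148 RPKM for Steap4 to 2.18 RPKM for S1pr3. Thus the filament gene Gfap dominated the group, while Lcn2, Steap4 and Timp1 sat near the floor in males. Lcn2 had 0 to 8 reads in the 12 male libraries, 4 of them above 3 reads. Steap4 had 1 to 9 reads in males and Timp1 1 to 10 reads.

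The largest separation among the 6 groups was between the sexes. Gfap, Vim, Lcn2, Osmr and Steap4 were higher in female Tau than in male Tau hippocampus, and the remaining 5 members did not pass the test. The 2 groups of AD tau-injected females were compared with the 2 of males, averaged over genotypes, by the quasi-likelihood test of edgeR with Benjamini-Hochberg adjustment over all 15419 genes tested. In this comparison 23.8% of all genes passed an adjusted p of 0.05, against 5 of 10 members. The share of all genes depended on single libraries and was 3.99% without female WT Tau 331 and 40.7% without male KO Tau 711, with 5 and 6 members called. An unadjusted p below 0.05 was found in 39.8% of all genes and in 7 members. Of these members, 3 (Lcn2, Steap4 and Timp1) failed the filter on low counts in males alone and passed it here through female reads. Lcn2 and Steap4 were also among the 5 called, so their counts and direction are not independent of that filter. The median log2 difference was 1.11 over the members, those 3 included, and -0.01 over all genes. The other 7 members ran from -0.14 (S1pr3) to 1.70 (Gfap). Sex could not be told apart from anything else that differed between male and female libraries, since the labels gave no date or batch and library numbers of females began with 3 and those of males with 7.

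**Figure D1:**
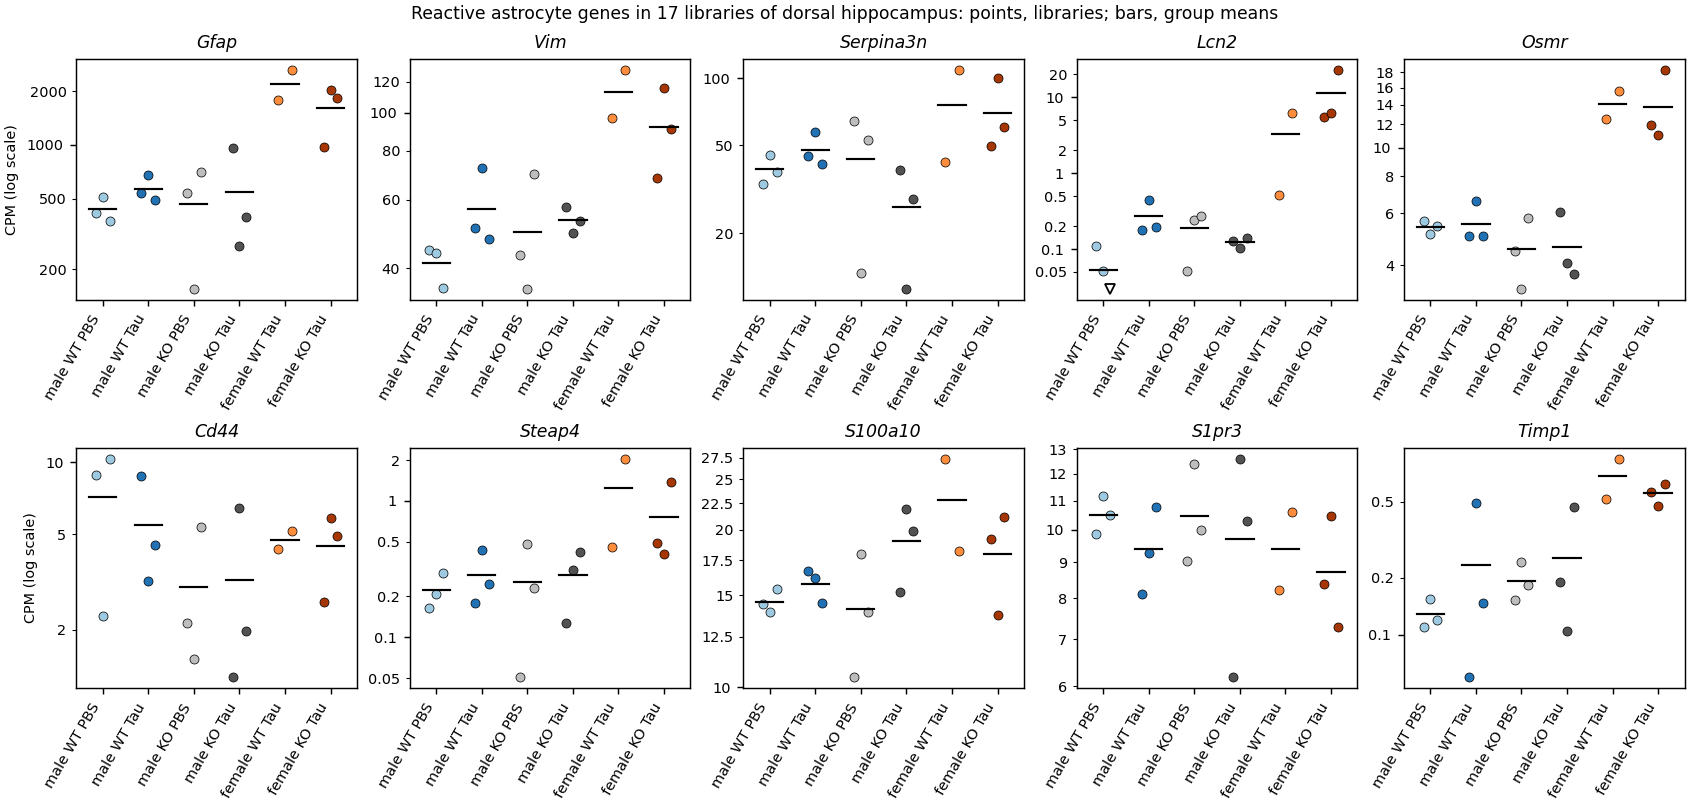
CPM of the 10 reactive astrocyte genes (log axis) by group, 1 point per library, with bars at group means; the open triangle marks male WT PBS 793, in which Lcn2 had 0 reads. Gfap, Lcn2 and Osmr were higher in each of the 5 female libraries than in each of the 12 male libraries.

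Gfap, the main intermediate filament of astrocytes, gave the clearest difference in read number. It stood at 1776 and 2632 CPM in female WT Tau, and at 973, 2045 and 1826 CPM in female KO Tau. Male WT Tau held 535, 678 and 491 CPM, and male KO Tau 962, 271 and 392 CPM. Male WT PBS held 417, 513 and 375 CPM, and male KO PBS 540, 156 and 705 CPM. All 5 female libraries were above all 12 male libraries, but narrowly so, since female KO Tau 314 (973 CPM) and male KO Tau 711 (962 CPM) were almost level. The log2 difference between female Tau and male Tau was 1.70 (SE 0.31, adjusted p = 0.00772). Ordered by mean, the groups ran from male WT PBS (435 ± 70.5 CPM, SD, n = 3) through male KO PBS, male KO Tau and male WT Tau (568 ± 97.8 CPM) to female KO Tau (1615 ± 566 CPM) and female WT Tau (2204 ± 605 CPM, n = 2). Only the step from male WT Tau to female KO Tau joined neighbours that did not overlap.

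Vim, a filament protein that assembles with GFAP, followed the same order of groups with a smaller span. Female WT Tau held 97.0 and 129 CPM and female KO Tau 68.2, 116 and 91.1 CPM. Male WT Tau held 50.8, 72.3 and 47.6 CPM, and male KO Tau 57.3, 49.4 and 53.0 CPM. In PBS-injected males the levels were 44.6, 43.9 and 35.6 CPM in WT and 43.3, 35.5 and 69.8 CPM in KO. The log2 difference between the sexes under AD tau was 0.82 (SE 0.16, adjusted p = 0.00835), although female KO Tau 314 lay below male WT Tau 772.

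Among the secreted products, Lcn2, which encodes the iron-siderophore binding protein lipocalin 2, separated the sexes by the largest ratio. Female WT Tau held 9 reads (0.521 CPM) and 138 reads (6.14 CPM), and female KO Tau 78, 91 and 368 reads (5.50, 6.22 and 22.9 CPM). Male WT Tau held 3, 8 and 4 reads and male KO Tau 2, 2 and 3 reads. Male WT PBS held 2, 1 and 0 reads and male KO PBS 1, 4 and 6 reads. All female libraries were above all male libraries, but female WT Tau 331 was closer to the males than to the other females. The fitted log2 difference was 4.97 (SE 0.70, adjusted p = 0.00318), a size that rests on very few male reads. Without female WT Tau 341 it was 3.59 (adjusted p = 0.0130).

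Serpina3n, a secreted inhibitor of serine proteases, stood at 42.1 and 109 CPM in female WT Tau and at 49.5, 100.3 and 60.3 CPM in female KO Tau. Male WT Tau held 44.5, 57.5 and 41.2 CPM and male KO Tau 38.8, 11.3 and 28.5 CPM. Male WT PBS held 33.5, 45.2 and 37.9 CPM and male KO PBS 64.1, 13.3 and 52.6 CPM. Groups of the sexes overlapped, with 3 of 5 females above all male Tau libraries. The log2 difference was 0.99 (SE 0.33, adjusted p = 0.0509), just outside the threshold. It passed without male KO Tau 711 (1.21, adjusted p = 0.0146) and was 0.54 without female WT Tau 341 (adjusted p = 0.249). It also passed with RLE factors (adjusted p = 0.0495), without the filter on low counts (adjusted p = 0.0381), under voom (adjusted p = 0.0198) and with male PBS libraries added (adjusted p = 0.0436). Serpina3n has closely similar neighbours in the Serpina3 cluster, among which reads may have been split.

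Timp1, an inhibitor of matrix metalloproteinases, was at 0.521 and 0.846 CPM in female WT Tau and at 0.564, 0.478 and 0.622 CPM in female KO Tau. Male Tau libraries ranged from 0.0596 to 0.493 CPM and male PBS libraries from 0.110 to 0.242 CPM. Thus 4 of 5 females were above all males. The log2 difference of 1.24 (SE 0.48) did not pass (adjusted p = 0.0815). It passed without male WT Tau 772 (1.77, adjusted p = 0.0362), with all 17 libraries in one fit (adjusted p = 0.0389) and with male PBS libraries added to the male side (adjusted p = 0.00404). Timp1 lies inside Syn1 on the opposite strand of chromosome X and shares 0 exon bases with it.

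Among the receptors, Osmr gave the smallest adjusted p of the 10 genes. It encodes the subunit that pairs with gp130 to bind oncostatin M. Female WT Tau held 12.6 and 15.5 CPM and female KO Tau 11.9, 11.004 and 18.3 CPM. Male WT Tau held 5.01, 6.57 and 5.02 CPM, and male KO Tau 6.06, 4.06 and 3.72 CPM. PBS-injected males held 5.65, 5.11 and 5.43 CPM in WT and 4.46, 3.32 and 5.77 CPM in KO. The lowest female was therefore well above the highest male. The log2 difference was 1.40 (SE 0.17, adjusted p = 0.00191), and from 1.29 to 1.54 when each library was left out in turn.

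Cd44, the hyaluronan receptor, and S1pr3, a receptor for sphingosine 1-phosphate, were the members with the smallest sex differences together with S100a10. Cd44 ranged from 2.61 to 5.88 CPM in females and from 1.26 to 10.4 CPM in males, where the WT PBS libraries alone held 8.82, 2.27 and 10.4 CPM. S1pr3 ranged from 7.28 to 10.6 CPM in females and from 6.18 to 12.6 CPM in males. It was the single member with a negative log2 difference (-0.14). Its groups overlapped at each step of their order, from female KO Tau (8.71 ± 1.61 CPM) to male WT PBS (10.5 ± 0.647 CPM). S1pr3 shares 45 exon bases with Gm32834 on the opposite strand, and reads there may not be separable, since the library kit was not stated to mark strand.

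Steap4, one of the 2 members whose promoter carried the STAT motif shown above, was at 0.463 and 2.05 CPM in female WT Tau and at 0.494, 0.410 and 1.37 CPM in female KO Tau. Male Tau libraries ranged from 0.126 to 0.438 CPM and male PBS libraries from 0.0507 to 0.484 CPM. The groups overlapped, and female WT Tau 341 and female KO Tau 325 were the only libraries above 1 CPM. The log2 difference was 1.67 (SE 0.50, adjusted p = 0.0350). The call was lost without female WT Tau 341 (0.92, adjusted p = 0.221), without male WT Tau 771 or 773 (adjusted p = 0.0762 and 0.0831) and without male KO Tau 712 or 713 (adjusted p = 0.0631 and 0.0567). Without female KO Tau 325 the gene fell under the filter on low counts. S100a10 was at 18.3 to 27.4 CPM in female WT Tau and 13.7 to 21.1 CPM in female KO Tau, which overlapped with 10.4 to 21.9 CPM in males.

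The 3 members Gfap, Lcn2 and Osmr had no overlap between the female and male Tau libraries, against 10.5% of all genes tested. The gap was narrow for Gfap (973 against 962 CPM). It was also narrow for Lcn2 (9 reads in female WT Tau 331 against 8 in male WT Tau 772), which was tested here only through its female reads. Within genotypes the separation was examined after the data had been seen. Between female and male WT Tau (2 against 3 libraries) no member passed, with 0.37% of all genes called, and the log2 differences of Gfap, Lcn2 and Osmr were 1.88, 3.56 and 1.27 with adjusted p of 0.101, 0.110 and 0.0676. Between female and male KO Tau, Lcn2 (6.38, adjusted p = 0.0165) and Osmr (1.52, adjusted p = 0.0165) passed, with 6.33% of all genes called. With male KO Tau 711 left out of that comparison, Gfap (2.25), Vim (0.82), Serpina3n (1.79), Lcn2 (6.42) and Osmr (1.79) passed, with 32.1% of all genes called. The interaction of sex and genotype under AD tau passed for 0 of 10 members by edgeR and for 0% of all genes, with 2.94% of genes and 0 members at an unadjusted p below 0.05.

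**Figure D2:**
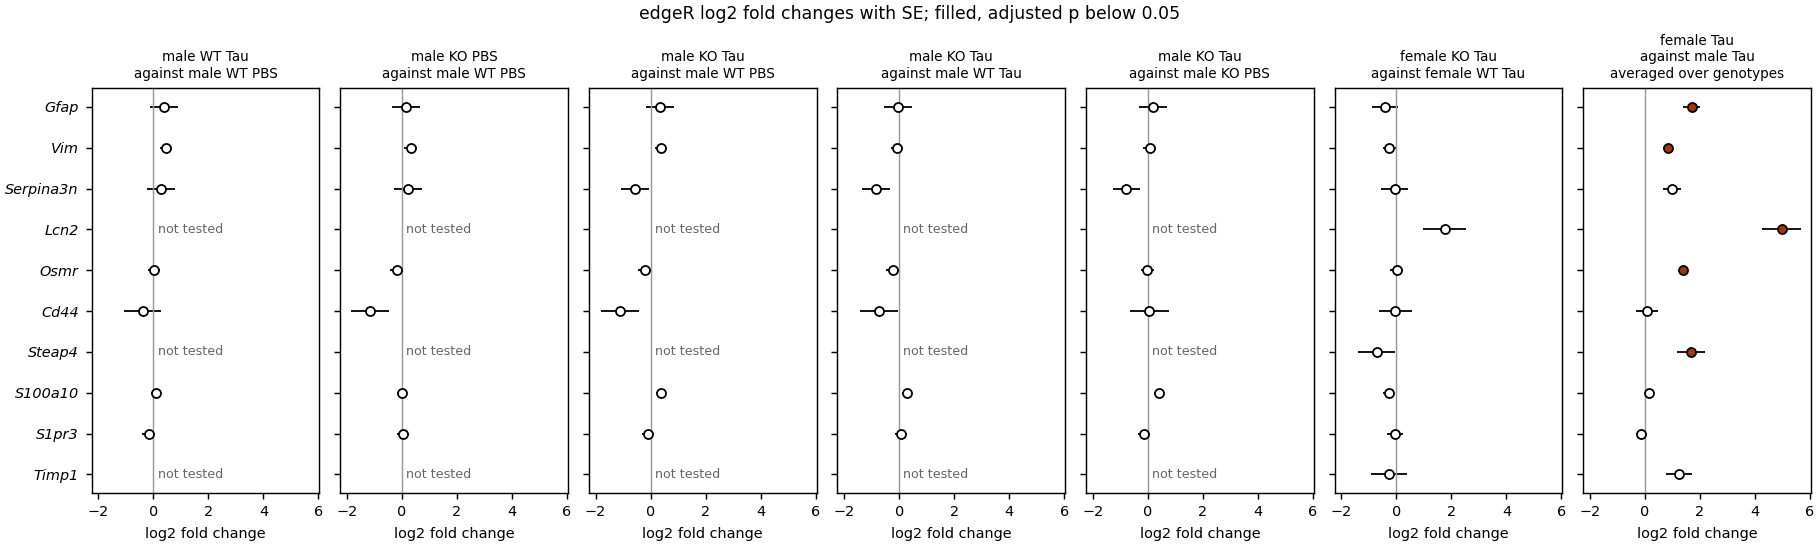
Log2 fold changes (points) with SE (bars) of the 10 genes in 7 comparisons by edgeR; filled points passed an adjusted p of 0.05, and genes under the filter on low counts are marked as not tested. Filled points occur in the female against male panel alone, for Gfap, Vim, Lcn2, Osmr and Steap4.

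Most genes of a list for unperturbed astrocytes were also higher in females, so the members were set against the summed homeostatic astrocyte list. In the same comparison, where 23.8% of all genes passed, 12 of 16 homeostatic genes were higher and 0 lower, with a median of 0.62. They included the folate enzyme gene Aldh1l1 (0.55, SE 0.07, adjusted p = 0.00247), the connexin gene Gjb6 (1.03, SE 0.14, adjusted p = 0.00288) and the glycolytic gene Aldoc (0.77, SE 0.13, adjusted p = 0.00655). Gfap amounted to 6.78% to 22.3% of the list's summed CPM in females and to 1.95% to 8.90% in males. On this scale 4 of the 5 females exceeded all males, and female KO Tau 314 (6.78%) fell within the male range. Lcn2 no longer separated the sexes, since female WT Tau 331 (0.00337%) was below male WT Tau 772 (0.00540%). Osmr kept a narrow gap, at 0.0813% to 0.131% in females and 0.0417% to 0.0811% in males. Vim overlapped throughout, at 0.475% to 1.09% in females and 0.443% to 0.892% in males. The part of astrocyte content in the differences above was not tested.

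**Figure D3:**
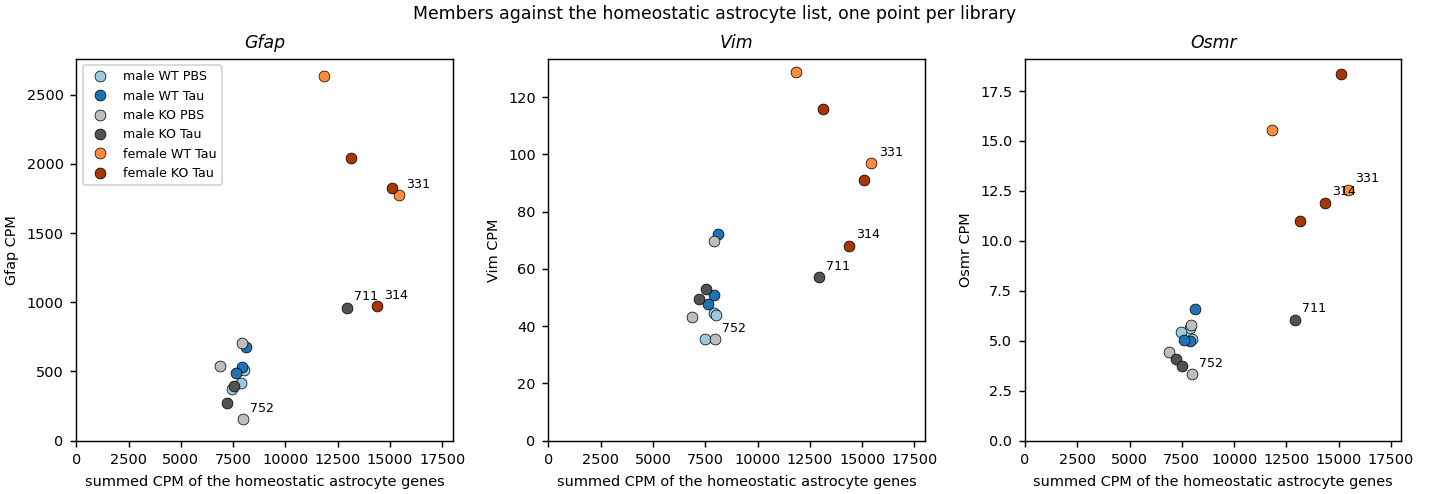
CPM of Gfap, Vim and Osmr (vertical axes) against the summed CPM of 16 homeostatic astrocyte genes (horizontal axis), 1 point per library, coloured by group. Male KO Tau 711 lies with the females on the horizontal axis at 12921 CPM but below each of them for the 3 members. For Gfap it is almost level with female KO Tau 314 (962 against 973 CPM). As a share of the list's summed CPM its Gfap (7.45%) is above that of 314 (6.78%).

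Some genes of 3 other lists of reactive astrocytes also passed between the sexes, all but 1 of them as higher in females. Of the 6 other pan-reactive genes, 3 were higher in females and 0 lower (median 0.81), namely the ferroxidase gene Cp (1.15), the asparaginase gene Aspg (1.27) and the chemokine gene Cxcl10 (2.07). Of 12 genes of the neuroinflammatory (A1) list, 7 were higher and 0 lower (median 0.70), led by Ggta1 (1.08), Fbln5 (1.13) and Srgn (1.07). Of 10 tested genes of the ischaemic (A2) list, 4 were higher and 1 lower (median 0.35), led by Cd14 (1.02), Emp1 (1.21) and Tm4sf1 (0.55). The lower gene was Sphk1, a sphingosine kinase gene (-1.44), named after its value was seen. All of these lists were read against the 23.8% of genes called, and their sets were not tested as such.

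Genes of gp130 and STAT3 signalling and partners of the members were read against the 23.8% of all genes called. Their sets were not tested as such. Of 13 tested genes for gp130 cytokines, receptors and STAT3 signalling, 1 was higher and 0 lower in females, with a median of 0.16. This gene was Il6st, the shared receptor chain (0.40, SE 0.10, adjusted p = 0.0188). Of 22 tested ligands, receptors and partners of the members, 6 were higher and 2 lower (median 0.29), led by the metalloproteinase inhibitor genes Timp3 (0.72) and Timp4 (0.97) and by the tumour necrosis factor receptor gene Tnfrsf1a (0.56). Osm, which encodes the ligand of the Osmr receptor, had 0 reads in some libraries, as did Il6 and Cntf.

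Some markers of other cell types passed between the sexes as well, where 23.8% of all genes were called. Microglial genes were higher in 6 of 12 cases and lower in 0, with complement genes C1qa (0.77), C1qb (0.83) and C1qc (0.66) leading. The summed microglial list was 684 to 848 CPM in females and 435 to 716 CPM in males, and none of its genes was at 0. Endothelial genes were higher in 6 of 12 and mural genes in 6 of 10, with 0 lower in both. Of the remaining lists, 1 of 11 meningeal fibroblast genes, 1 of 12 ependymal genes and 2 of 12 oligodendrocyte genes were higher, 2 of 7 CA1 pyramidal genes were lower, and 0 of 14 choroid plexus and 0 of 10 dentate granule genes passed. The part of these cell types in the members' values was not tested.

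**Figure D4:**
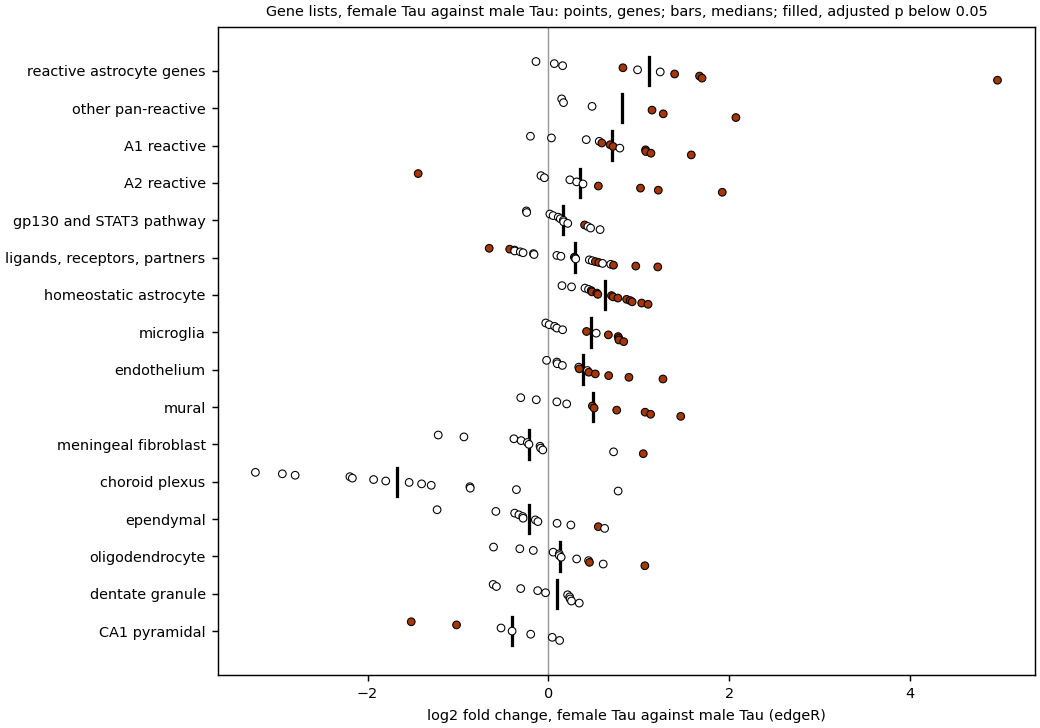
Log2 fold changes between female Tau and male Tau (horizontal axis) of each tested gene in 16 lists (rows); bars mark medians and filled points passed an adjusted p of 0.05. The reactive astrocyte genes have a median of 1.11, the homeostatic astrocyte genes 0.62 and the choroid plexus genes -1.67 with 0 filled points. The 1.11 includes Lcn2, Steap4 and Timp1, which passed the filter on low counts through female reads, so the 2 astrocyte medians are not on equal terms.

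In males, AD tau and loss of Acss2 were examined in a separate fit of the 12 male libraries with 15098 genes tested. Lcn2, Steap4 and Timp1 were under the filter on low counts, which left 7 members. None of the 7 passed in any of 8 comparisons by edgeR, and the comparisons shared libraries with each other. DESeq2 on the same 12 libraries also called 0 members in each. In the alternative settings, calls over all genes numbered 0 to 11 for WT Tau against WT PBS and 1 to 4 for KO PBS against WT PBS. For KO Tau they numbered 0 to 36 against KO PBS, but reached 1032 against WT PBS and 1377 against WT Tau. With few genes called in most settings, 0 members is not read as a result about these genes.

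For AD tau in WT males, log2 differences from PBS ran from -0.39 (Cd44) to 0.44 (Vim), with a median of 0.10 and SE of 0.18 to 0.68. Among all genes 0% passed and 1.86% had an unadjusted p below 0.05, against 0 members. Vim was higher in all 3 Tau than in all 3 PBS libraries, as 12.2% of all genes were in either direction. The mean of Gfap was 568 ± 97.8 CPM with AD tau and 435 ± 70.5 CPM with PBS (SD, n = 3 each), and the ranges overlapped.

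For loss of Acss2 without AD tau, differences between KO PBS and WT PBS ran from -1.18 (Cd44) to 0.31 (Vim). Of all genes 0.00662% passed, 4.42% had an unadjusted p below 0.05 and 11.7% did not overlap, against 0 members for each. The KO PBS libraries were far apart for the filament and serpin genes, with a 4.53-fold span of Gfap, against 1.37-fold in WT PBS. Library 752, the lowest of its group for both Gfap and Serpina3n, was also the one with the low CA1 list.

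For both together, KO Tau against WT PBS ran from -1.12 (Cd44) to 0.39 (S100a10). S100a10 had 15.2, 21.9 and 19.9 CPM in KO Tau and 14.4, 13.9 and 15.4 CPM in WT PBS. It was the single member with an unadjusted p below 0.05 and did not pass (0.39, SE 0.18, adjusted p = 0.784). Of all genes 0.00662% passed, 6.33% had an unadjusted p below 0.05 and 14.4% did not overlap, the last of which held for 1 member, Vim. A meningeal fibroblast list, read after its values were seen, summed to 107, 316 and 355 CPM in KO Tau 711, 712 and 713. In WT PBS that list summed to 66.3 to 166 CPM. The part of such tissue in the S100a10 values was not tested. With DESeq2 on these 2 groups alone and without male KO Tau 711, S100a10 passed (0.52, SE 0.15, adjusted p = 0.00841), with 7.30% of all genes called. With that library kept, the same fit called 0 members.

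KO Tau against WT Tau ran from -0.84 (Serpina3n) to 0.29 (S100a10). Of all genes 0.00662% passed and 4.71% had an unadjusted p below 0.05, against 0 members. Serpina3n was lower in all 3 KO Tau libraries than in all 3 WT Tau libraries, as 12.6% of genes were in either direction, with means of 26.2 ± 13.9 and 47.7 ± 8.64 CPM. Gfap passed as lower in KO Tau with DESeq2 on the 2 groups alone without male KO Tau 711 (-0.76, SE 0.27, adjusted p = 0.0469), with 9.25% of all genes called. With that library kept, the same fit called 0 members. It held 962 CPM of Gfap against 271 and 392 CPM in its group, whose mean was 542 ± 369 CPM.

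KO Tau against KO PBS ran from -0.78 (Serpina3n) to 0.39 (S100a10), with 0% of all genes passing, 7.95% at an unadjusted p below 0.05 and 9.01% not overlapping, against 0 members for each. Averaged over genotypes, AD tau against PBS ran from -0.25 (Serpina3n) to 0.27 (Gfap), with 0% of all genes passing and 5.38% at an unadjusted p below 0.05. Averaged over treatments, KO against WT ran from -0.96 (Cd44) to 0.15 (S100a10), with 0.00662% passing and 4.58% at an unadjusted p below 0.05. The interaction of genotype and treatment ran from -1.06 (Serpina3n) to 0.45 (Cd44), with 0% passing and 4.18% at an unadjusted p below 0.05. No member met either threshold in these comparisons.

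In females, loss of Acss2 under AD tau moved no member past the threshold. Differences between KO Tau and WT Tau ran from -0.72 (Steap4) to 1.76 (Lcn2), and 8 of 10 were negative. Over all genes 48.0% were positive. The members varied together in part and the WT group held 2 libraries, so this count is not read as a shared fall. Lcn2 alone had an unadjusted p below 0.05 (1.76, SE 0.79, adjusted p = 0.997), and its groups overlapped, since female WT Tau 341 held 6.14 CPM. Without female WT Tau 341 the difference was 4.50, and without female KO Tau 325 it was 0.86. Of all genes 0.00649% passed, 2.89% had an unadjusted p below 0.05 and 16.0% did not overlap between 2 and 3 libraries, which held for 0 members. In all comparisons other than female against male, no gene of the 15 other lists passed the threshold either.

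The members did not rise and fall as one block from library to library. After subtraction of group means, the log2 CPM of Gfap and Serpina3n varied together over the 17 libraries (Pearson r = 0.897), while S100a10 varied against Serpina3n (r = -0.863) and against Gfap (r = -0.767). These pairs were picked after their values were seen and share depth and tissue composition. By the same measure, the genes most like Gfap among 15607 were Gm20605 (0.968), Chrna5 (0.963), Slc14a1 (0.961), Tnxb (0.955) and Rnf182 (0.953). Those most like the mean standardised level of the 10 members were Rrbp1 (0.876), Tagln2 (0.864), Tspan4 (0.836), Grwd1 (0.834) and Ggta1 (0.829). Values without subtraction are not given as coefficients, since males and females formed separate clusters.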

How the data were processed

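Bulk RNA sequencing of dorsal hippocampus was analysed in 17 libraries of 6 groups taken from the sample titles. The deposited values are raw read counts per gene. Per the labels and the study's methods, the authors aligned reads with RNA-STAR 2.5.2 to GRCm38 (mm10) and counted reads over exons with HTSeq 0.9.1 on the reverse strand. Animals were perfused with fixative before RNA extraction, per the labels. Columns of the table were matched to samples by name, and 0 columns were left unmatched. Members and gene lists were chosen with earlier results of these data known. Genes of other lists were named by the smallest p, at most 3 a list.

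Counts were fitted in R 4.3.3 with edgeR 4.0.16: TMM factors, filterByExpr (minimum count 10, minimum total 15), the quasi-likelihood F-test and Benjamini-Hochberg adjustment over all genes tested, called below 0.05. The male fit held the 12 male libraries and the Tau fit the 11 Tau libraries. SE was the log2 fold change divided by the root of F. CPM used total counts, and RPKM the merged exon length of GENCODE M21 genes. Alternatives were DESeq2 1.42.0, RLE factors, no filter, voom with quality weights (limma 3.58.1), fits of fewer or more groups and leaving out each library. Comparisons within genotype and with male PBS libraries added were chosen after seeing the data. The procedure was tested on simulated data. Depth set the floor of 3 reads per library, which covers counting error only. Labels call the samples of a group biological replicates.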

Additional observations from a re-analysis of the deposited data

How the results depend on the processing

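Gfap, Vim, Lcn2 and Osmr passed as higher in female Tau than in male Tau in all 16 settings other than those within genotype or with male PBS libraries added, and 4 to 6 members passed when each library was left out. The members called numbered 0 within WT and 2 within KO, in which fewer libraries were compared. With DESeq2 on the groups compared and without library 711, male KO Tau differed from male WT PBS in 1 member (S100a10) and from male WT Tau in 1 member (Gfap), against 0 under each other setting. The cause was not tested. Under voom Steap4 no longer passed (1.15, adjusted p = 0.0528). Calls over all genes between the sexes numbered 3674, and from 57 (within WT) to 6656 over 20 alternative settings. They numbered 628 without female WT Tau 331, 1585 without male WT Tau 773, 6290 without male KO Tau 711 and 6189 under voom. In males, calls over all genes reached 1032 against WT PBS and 1377 against WT Tau by DESeq2 on the groups compared without 711, against 22 and 28 by the same fit with 711 kept and 1 each by edgeR on all male libraries. The paper's figure of the WT PBS comparison gives 2 KO Tau replicates and names no library left out. Its numbers of genes called in both comparisons were close to those without 711. In males Lcn2, Steap4 and Timp1 were fitted only by DESeq2, without the filter or with all libraries, and were never called. No paired analysis was possible because the groups share no replicate numbers.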
